A study of Homo sapiens with 9 samples.

Results

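SW620 cells, an established human line derived from a lymph node metastasis of a colon adenocarcinoma, were grown in suspension and sequenced in 9 libraries, and the libraries numbered 3 were compared with those numbered 2. The members are 6 of the 9 libraries: 1 untreated, 1 with streptomycin (SM) and 1 with dihydrostreptomycin (DSM) under each number. Of 28307 genes in the count table, the 15384 with 10 or more counts in at least 3 of the 6 libraries were tested. SM and DSM are aminoglycoside antibiotics, given at 120 µM for 48 h. All 9 cultures were wild type by their labels and shared one medium with insulin, basic FGF and EGF on plates coated against attachment, so EGF was present in the untreated cultures too. The design text calls the 3 numbered cultures of a treatment biological replicates. The labels do not say what cultures with the same number share, and SW620 is a single line. The p-values set the difference between the numbers against a spread over the 3 treatments that was borrowed mostly from all genes. A gene's own 3 pairs gave 2 residual degrees of freedom, beside 31.5 prior ones. A gene whose difference repeated unevenly can therefore still pass. Each number holds 1 culture per treatment, so the p-values do not cover a further set of cultures.

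Epidermal growth factor binds its receptor and, through RAS, RAF and MEK, activates the kinase ERK. ERK signalling induces immediate early genes within minutes, without new protein synthesis; these encode transcription factors of the EGR, FOS, JUN and KLF families. It also induces the DUSP phosphatases and Sprouty proteins, which act as feedback inhibitors, and the EGF family ligands amphiregulin and epiregulin, which act back on the receptor. Colon cancer lines commonly carry active RAS, and this pathway and Wnt signalling are the main growth signals of the colon epithelium.

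Total counts ran from 39315662 in SM 2 to 60740641 in untreated 3 over the 6 libraries, and from 53432282 to 65562227 over the 3 libraries numbered 1. The epithelial identity of the line was checked on 11 colon epithelial markers: 8 averaged at least 1 CPM (read counts scaled by library size to a common total), while KRT20, CDX1 and GPA33, genes of differentiated colon epithelium, lay at or below 0.61 CPM in every library. Summed by library totals, these 11 markers gave 11444 to 11867 CPM under number 2 and 11366 to 12111 CPM under number 3. The fibroblast markers summed to 12.8 to 17.0 CPM under number 2 and 13.5 to 20.2 CPM under number 3, with COL3A1, DCN, FAP and DPT at 0 in all 9 libraries. The leukocyte markers summed to 23.1 to 26.2 and 23.9 to 30.3 CPM, mostly from CD68 and LYZ, with PTPRC at or below 0.107 CPM. Endothelial markers stayed at or below 6.73 CPM in sum, and erythroid markers at or below 0.895. Neural and muscle markers summed to 160 to 180 CPM under number 2 and 154 to 162 under number 3, of which SYT1 gave 132 to 155 and 127 to 135; SYT1 was called lower, at -0.17 on the log2 scale. SM 2, the library with the fewest counts, stood apart on the first principal component of the 6 libraries, which held 37.6% of the variance. Number took 24.2% of the sum of squares of log2 CPM in these libraries, treatment 41.3% and the remainder 34.5%. These shares rest on 1, 2 and 2 degrees of freedom. A share grows with its degrees of freedom even without an effect, so the shares do not rank the terms.

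Between numbers 3 and 2, 567 genes (3.69%) passed edgeR's quasi-likelihood test at an adjusted p under 0.05, 284 higher in number 3 (1.85%) and 283 lower (1.84%). The differences were small: the median log2 fold change was 0.26 among the genes called higher and -0.24 among those called lower, and 19 and 20 genes reached 1.5-fold. At an unadjusted p under 0.05 there were 2385 genes, 15.5% of those tested. The sign was the same in all 3 treatments for 282 of the 284 and 278 of the 283. The call rests on these same 3 pairs and favours genes whose pairs agree, so these counts are no separate evidence. The libraries of the 2 numbers did not overlap for 222 and 212 of them, against 2541 of all genes tested (16.5%). In a fit of all 9 libraries, 583 genes (3.79%) differed between numbers 3 and 2, while 5757 (37.4%) differed between 3 and 1 and 5611 (36.5%) between 2 and 1; these contrasts share libraries. The count moved with the libraries used: leaving out both SM libraries raised it to 1500, and leaving out both untreated or both DSM libraries lowered it to 186 or 325. A fit without treatment as a term called 120 genes and DESeq2 273.

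Early growth response genes and some other ERK-induced genes fell. Of the 32 tested members of the list of immediate early and MAPK feedback genes, 19 (59.4%) were called lower and 0 higher, against 1.84% of all genes called lower. The median log2 fold change of the list was -0.215, against -0.002 over all genes, and 2 of its 32 members had a positive value. The list's mean log2 CPM differed between number 3 and number 2 by -0.314 in the untreated pair, -0.348 in the SM pair and -0.335 in the DSM pair. The number called lower was 14 without the untreated libraries, 11 without treatment as a term and 14 with DESeq2. In bulk libraries, fewer cells of a type and less RNA per cell cannot be told apart. The list was chosen with results of these data known, so its count is a description. At an unadjusted p under 0.05, 23 members were lower and 0 higher, and DESeq2 also called 0 higher.

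The promoters of EGR1 and PLAUR are shown because serum response elements of the EGR1 promoter and AP-1 sites of the PLAUR promoter are the classical routes from ERK to these genes; both genes were chosen for this after their values were seen. Each runs from 250 bases before to 50 bases after the RefSeq start in GRCh38.p14, 5′ to 3′ on the gene's strand. EGR1 is at chr5:138465229-138465528 on the plus strand. The 2 CArG boxes within this stretch, the core of the serum response element, are in capitals. PLAUR is at chr19:43670120-43670419 on the minus strand, with the 1 AP-1 site within this stretch, TGANTCA, in capitals.
EGR1: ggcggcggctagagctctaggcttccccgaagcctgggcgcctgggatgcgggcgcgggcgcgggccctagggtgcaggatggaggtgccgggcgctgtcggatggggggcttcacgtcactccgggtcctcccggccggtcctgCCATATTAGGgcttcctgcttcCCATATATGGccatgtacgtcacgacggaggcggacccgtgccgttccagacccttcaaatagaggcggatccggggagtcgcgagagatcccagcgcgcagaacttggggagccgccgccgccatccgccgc
PLAUR: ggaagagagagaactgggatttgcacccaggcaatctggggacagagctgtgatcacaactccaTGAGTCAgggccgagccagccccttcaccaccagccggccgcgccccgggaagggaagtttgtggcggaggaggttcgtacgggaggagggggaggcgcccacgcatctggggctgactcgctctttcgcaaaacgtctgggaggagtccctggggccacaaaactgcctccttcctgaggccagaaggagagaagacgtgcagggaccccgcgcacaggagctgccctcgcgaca
The CArG boxes of EGR1 begin 105 and 83 bases before the start, and the AP-1 site of PLAUR 186 bases before it.

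EGR1, a zinc-finger factor that is among the first genes induced by growth factors (chromosome 5, 138465479 to 138469303), stood at 140, 169 and 164 CPM in the untreated, SM and DSM libraries numbered 2. In those numbered 3 it stood at 70.7, 87.5 and 74.6 CPM. Every library numbered 3 lay below every library numbered 2, and those numbered 1 lay below every library numbered 2, at 102, 113 and 81.5 CPM. EGR1 fell by 1.02 on the log2 scale (SE 0.04, edgeR adjusted p = 3.33e-19).

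EGR3, a relative of EGR1 (chromosome 8, 22687659 to 22693480), stood at 17.9, 18.8 and 21.3 CPM under number 2 and 9.47, 9.39 and 9.58 CPM under number 3. The 3 values under number 3 differed little from each other and from number 1, at 9.82, 9.28 and 7.99 CPM. EGR3 fell by 1.03 on the log2 scale (SE 0.07, edgeR adjusted p = 2.03e-12). EGR2 fell from 1.21, 1.75 and 1.37 CPM to 0.556, 0.527 and 0.564 CPM. The corepressor NAB2, which EGR factors induce and which restrains them, fell by 0.29 on the log2 scale (SE 0.051, edgeR adjusted p = 3.67e-04), while NAB1 had -0.14 and did not pass (adjusted p = 0.116). With EGR4 at -0.81, 5 of the 6 tested genes of the EGR factors and their corepressors were lower, against 1.84% of all genes. This grouping was made after the values were seen.

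FOS and FOSB encode partners of JUN in the AP-1 factor. FOS stood at 12.5, 16.6 and 13.5 CPM under number 2 and 7.23, 8.28 and 8.25 CPM under number 3. Number 1 reached 6.76, 9.96 and 6.75 CPM, close to number 3. FOS fell by 0.84 on the log2 scale (SE 0.08, edgeR adjusted p = 2.59e-09). FOSB fell by 0.89 (SE 0.10), from 6.81, 9.75 and 6.87 CPM to 3.35, 5.07 and 4.24 CPM, with no overlap. Other AP-1 genes had smaller differences: JUN -0.24, FOSL1 -0.19 and JUNB -0.16, each called lower, and JUND -0.08, not called (adjusted p = 0.415).

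**Figure D1:**
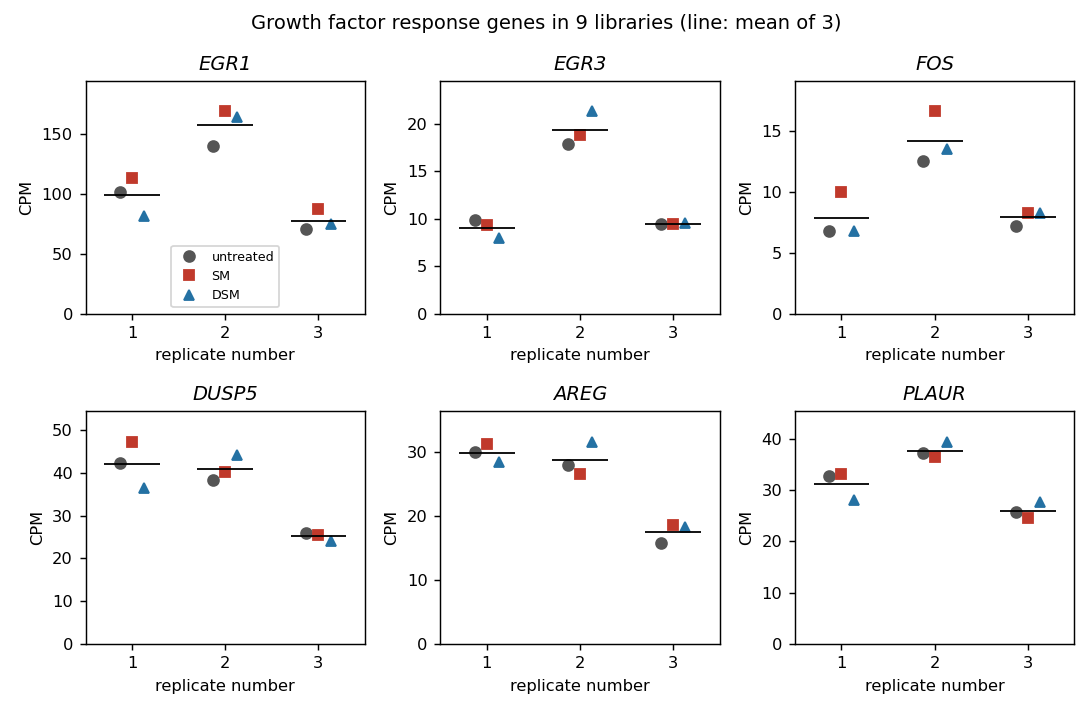
CPM (vertical axis, from 0) of EGR1, EGR3, FOS, DUSP5, AREG and PLAUR in 9 libraries by replicate number (horizontal axis), with a symbol per treatment and a line at the mean of the 3 libraries of a number. In each panel all 3 libraries numbered 3 lie below all 3 numbered 2, while those numbered 1 lie near number 3 for EGR3 and FOS and near number 2 for AREG and DUSP5.

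Among the feedback inhibitors, DUSP5, a nuclear phosphatase of ERK, stood at 38.3, 40.1 and 44.1 CPM under number 2 and 26.0, 25.4 and 24.0 CPM under number 3. It was as high under number 1 as under number 2, at 42.4, 47.3 and 36.4 CPM. DUSP5 fell by 0.70 on the log2 scale (SE 0.06, edgeR adjusted p = 1.07e-10). The cytoplasmic ERK phosphatase DUSP6 had -0.23, SPRY2 -0.20 and SPRY4 -0.16, all called lower. DUSP4 had -0.12 (adjusted p = 0.0607) and DUSP1 -0.30 (adjusted p = 0.0885), and neither passed. For DUSP1 1 library stood apart: SM 2 was at 8.22 CPM against 5.07 to 6.26 CPM in the other 5. The ERK-induced ETS factors ETV4 and ETV5 had 0.05 and -0.04 and the inhibitor SPRED1 0.00, none of them called.

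The remaining called members were IER2 (-0.35), IER3 (-0.30), ATF3 (-0.34), KLF2 (-0.57), KLF6 (-0.41), KLF10 (-0.23) and NR4A2 (-0.30). KLF2, a zinc-finger factor, stood at 6.93, 7.16 and 6.68 CPM under number 2 and 4.94, 4.29 and 4.76 CPM under number 3, without overlap. ATF3, a stress-induced factor, was the only one of the 19 whose libraries overlapped, with 9.29, 12.2 and 8.84 CPM against 7.26, 9.61 and 7.16 CPM. MYC, a growth regulator in the same list, had -0.09 and did not pass (adjusted p = 0.153); it ranged from 729 to 1050 CPM under number 2 and from 706 to 955 under number 3. BTG2, NR4A1, IER5, ZFP36, KLF4 and PHLDA1 were the other members not called, between -0.16 and -0.04.

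**Figure D2:**
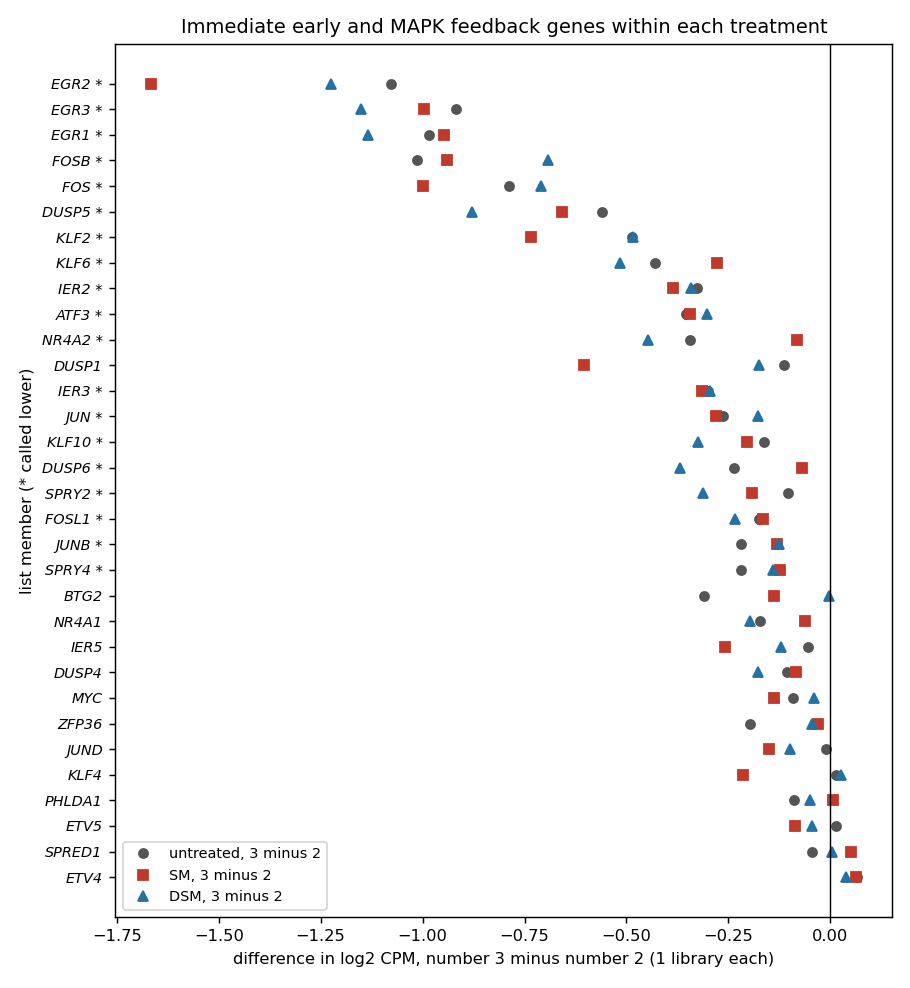
Difference in log2 CPM between the library numbered 3 and the library numbered 2 (horizontal axis) for the 32 tested immediate early and MAPK feedback genes (vertical axis), with a symbol per treatment; a star marks the 19 called lower. The EGR, FOS and DUSP5 rows lie well to the left of 0 in all 3 treatments, and the rows of ETV4 and SPRED1 lie around 0.

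The EGF family ligands amphiregulin and epiregulin, products of neighbouring genes on chromosome 4, fell together. AREG stood at 27.9, 26.5 and 31.6 CPM under number 2 and 15.7, 18.6 and 18.2 CPM under number 3. EREG stood at 17.7, 14.7 and 18.5 CPM under number 2 and 10.3, 10.3 and 9.89 CPM under number 3. Neither gene's libraries overlapped, and both stood under number 1 at or above their level under number 2, except in the DSM library. AREG fell by 0.72 (SE 0.06, edgeR adjusted p = 8.10e-10) and EREG by 0.74 (SE 0.07, edgeR adjusted p = 1.05e-08) on the log2 scale. Heparin-binding EGF-like growth factor, HBEGF, had -0.50, and TGFA -0.09 (adjusted p = 0.441). Among the 6 tested ligands 3 were called lower, against 1.84% of all genes. BTC and EPGN had 0.31 and 0.24, each under 1 CPM, and did not pass. This grouping was made after the values were seen, so its count is a description.

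Some genes of matrix breakdown and attachment fell as well. PLAUR, the urokinase receptor, stood at 37.3, 36.4 and 39.5 CPM under number 2 and 25.7, 24.5 and 27.6 CPM under number 3, without overlap. PLAUR fell by 0.54 on the log2 scale (SE 0.05, edgeR adjusted p = 3.46e-09). Urokinase itself, PLAU, had -0.43 and was called lower, while PLAT, the tissue plasminogen activator, and SERPINB2 had -0.09 and -0.30 and did not pass. The laminin chains LAMA3 and LAMB3, of epithelial basement membranes, had -0.39 and -0.21, and the integrin chains ITGA2 and ITGA6 -0.39 and -0.15. ITGA3, ITGB1 and ITGB4 had -0.04, -0.12 and 0.02 and did not pass. These genes were put together after the values were seen. Of the list of mesenchymal transition genes 6 of 14 were lower, against 1.84% of all genes, and 0 higher (median log2 fold change -0.135). Among the 6 were VIM, SNAI1, TNC and MMP14. VIM and TNC lost the call without the untreated libraries, when 2 of the 14 were called.

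AKAP12, a scaffold of protein kinase A, stood at 297, 246 and 340 CPM under number 2 and 181, 184 and 201 CPM under number 3. All libraries numbered 1 lay above both, at 510, 539 and 471 CPM. AKAP12 fell by 0.64 on the log2 scale (SE 0.04, edgeR adjusted p = 3.47e-12); its call was lost in the fit of all 9 libraries and without treatment as a term. SLC16A6, a transporter of the monocarboxylate family, fell from 32.2, 27.7 and 35.0 CPM to 21.3, 22.1 and 21.1 CPM. CDKN1A, which encodes the cell cycle inhibitor p21, fell from 10.5, 12.4 and 11.4 CPM to 7.75, 7.75 and 8.13 CPM, with no overlap and a log2 fold change of -0.53 (SE 0.08, edgeR adjusted p = 2.63e-05).

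Some stress-response genes fell, where 1.84% of all genes were called lower. Of 19 tested p53 targets 5 were lower (CDKN1A, PLK3, TNFRSF10B, GADD45A and PLK2) and 0 higher, with a list median of -0.064. The list's mean log2 CPM differed by -0.064 in the untreated pair, -0.191 in the SM pair and 0.002 in the DSM pair. Without the untreated libraries 2 of the 19 were called, and TNFRSF10B and GADD45A were not. SW620 carries mutant p53, and several of these genes are also induced by other pathways. Of 40 targets of ATF4, the factor of the integrated stress response, 8 were lower and 0 higher (list median -0.039), among them SLC7A11 (-0.45), the cystine transporter, GDF15 (-0.34), a secreted stress factor, and DDIT3 (-0.37). The mean log2 CPM of the ATF4 list differed by -0.059 in the untreated pair, -0.041 in the SM pair and -0.028 in the DSM pair. ATF4 itself had -0.04 and ASNS -0.01, not called. Of 33 targets of NRF2, the factor of the oxidant response, 8 were lower and 0 higher (list median -0.061). Among the 8 were HMOX1 (-0.47), NMRAL2P (-0.54), SRXN1 (-0.20) and AKR1C1 (-0.18). NQO1 had -0.07 and did not pass. The mean log2 CPM of the NRF2 list differed by -0.121 in the untreated pair, -0.165 in the SM pair and -0.001 in the DSM pair. SM 2 was the highest of the 6 libraries for HMOX1, at 72.7 CPM, against 37.7 CPM in untreated 2; SM 3 stood at 49.7 CPM and untreated 3 at 26.2 CPM, so the libraries of the numbers overlapped. The DDIT3 call was lost without either SM library, where SM 2 stood at 24.7 CPM against 13.2 to 16.3 CPM in the other 5 libraries. Without the untreated libraries 3 of the ATF4 and 4 of the NRF2 targets were called, without treatment as a term 0 and 0, and with DESeq2 2 and 6. At an unadjusted p under 0.05, 2 ATF4 targets were higher, and 0 of the p53 and NRF2 targets; DESeq2 called 0 higher in these 3 lists.

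The list of metallothioneins, small zinc-binding proteins, and metal transport genes had 12 tested members. Of these 4 were lower, against 1.84% of all genes, and 0 higher (median log2 fold change -0.062). The 4 were the metallothioneins MT1E, MT2A, MT1G and MT1X. MT1E stood at 18.0, 16.9 and 15.7 CPM under number 2 and 11.4, 14.1 and 11.3 CPM under number 3, and MT2A at 238, 234 and 247 against 200, 228 and 189 CPM. The mean log2 CPM of the whole list changed by -0.305 in the untreated pair, -0.049 in the SM pair and 0.009 in the DSM pair. In the DSM pair MT1E, MT2A, MT1G and MT1X differed by -0.47, -0.39, -0.41 and -0.35. In the SM pair they differed by -0.27, -0.04, -0.23 and -0.04. Without the DSM libraries 1 member was called, and without the untreated libraries or with DESeq2 2. Higher members numbered 0 at an unadjusted p under 0.05 and 0 with DESeq2, as in the mesenchymal list. The metallothionein genes are near-identical to each other, so the split of reads among them is uncertain.

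Some genes of the intestinal epithelium rose. PHGR1, a gene of differentiated intestinal epithelium, stood at 3.48, 3.25 and 3.34 CPM under number 2 and 5.40, 5.61 and 7.18 CPM under number 3. PHGR1 rose by 0.84 on the log2 scale (SE 0.11, edgeR adjusted p = 2.15e-06), the largest rise at 5 CPM or more. CDH17, the liver-intestine cadherin, rose from 5.03, 4.37 and 5.44 CPM to 7.23, 6.14 and 8.95 CPM, by 0.58 on the log2 scale (SE 0.09, edgeR adjusted p = 7.52e-05). Under number 1 CDH17 stood near number 3, at 7.93, 7.77 and 7.8 CPM, and PHGR1 near number 2, at 3.16, 2.67 and 4.02 CPM. Of the 21 tested members of the epithelial and enterocyte list 4 (19.0%) were higher and 0 lower, against 1.85% of all genes called higher: PHGR1, CDH17, the intestinal factor CDX2 (0.24) and the microvillus protein VIL1 (0.14). The median of the list was 0.122, but the keratins KRT8, KRT18 and KRT19 had 0.03, -0.07 and -0.05, and EPCAM -0.03, none of them called. Under number 1 VIL1 averaged 496 CPM, above its means of 424 and 469 CPM under numbers 2 and 3. The number 1 mean of CDX2 was 10.6 CPM, below its 12.1 and 14.3 CPM. CDX2 and VIL1 lost the call without the untreated libraries, and CDX2 also without the DSM libraries and in the fit of all 9. Without the untreated libraries 2 of the 21 were called higher. At an unadjusted p under 0.05, 2 members were lower, and DESeq2 called 0 lower; without the SM libraries 3 were called lower. Of the 11 tested genes of the brush border scaffold, grouped after the values were seen, 6 were higher. These were CDHR2 (0.40), MYO1A (0.46), ANKS4B (0.27), ESPN (0.24), USH1C (0.16) and VIL1. PLS1 (-0.01), EPS8 (-0.01) and EZR (-0.07) were not called. Neither were CDHR5 (0.13) and MYO7B (0.46), both under 1 CPM.

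Some Wnt targets rose too, where 1.85% of all genes were called higher. NOTUM, a secreted enzyme that inactivates Wnt ligands, stood at 167, 168 and 153 CPM under number 2 and 209, 195 and 210 CPM under number 3, without overlap. Number 1 lay near number 3, at 219, 191 and 232 CPM. NOTUM rose by 0.33 on the log2 scale (SE 0.04, edgeR adjusted p = 3.71e-07). AXIN2, SP5 and ASCL2 rose by 0.18, 0.18 and 0.20, so 4 of 23 tested Wnt targets and stem cell genes (17.4%) were higher and 0 lower, with a list median of 0.079. Under numbers 1, 2 and 3 AXIN2 averaged 255, 201 and 228 CPM and SP5 133, 115 and 130 CPM. ASCL2 averaged 26.3, 28.4 and 32.6 CPM, lowest under number 1. The stem cell genes LGR5, PROM1 and CD44 had 0.13, -0.05 and -0.08 and none passed (adjusted p = 0.104, 0.78 and 0.57). AXIN2, SP5 and ASCL2 lost the call without the untreated libraries, when 1 of the 23 was called higher, and SP5 also without the DSM libraries. ASCL2 lost it in the fit of all 9 libraries too. At an unadjusted p under 0.05, 3 members of the list were lower, and DESeq2 called 0 lower. Without the SM libraries 7 were called higher and 1 lower. Of 10 tested Wnt inhibitors, a family grouped after the values were seen, 5 were higher. These were AXIN2, NKD2 (0.13), NOTUM, KREMEN1 (0.26) and the secreted decoy SFRP5 (0.49). NKD1 (0.10), RNF43 (0.07), ZNRF3 (0.06), APCDD1 (0.17) and DKK1 (-0.04) were not called. SFRP5 lost the call without the untreated or the DSM libraries, and NKD2 with an offset per library for the GC content of genes (0.08, adjusted p = 0.111).

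Of the 17 tested cytosolic heat shock genes 4 were higher, against 1.85% of all genes, and 0 lower (list median 0.064). HSPA1B stood at 59.0, 61.2 and 51.7 CPM under number 2 and 77.8, 80.4 and 71.9 CPM under number 3, and HSPA1A at 38.7, 41.3 and 34.9 against 45.8, 50.5 and 47.7 CPM. Both rose, by 0.42 (SE 0.04) and 0.33 (SE 0.05) on the log2 scale, and both were higher still under number 1. The 2 genes encode the same inducible HSP70 protein from near-identical sequences, so their separate values are uncertain. The cochaperone DNAJB1 rose by 0.20, and the constitutive HSPA8 by 0.11, a call lost without the untreated libraries; the HSP90 genes HSP90AA1 and HSP90AB1 had 0.01 and -0.02. At an unadjusted p under 0.05, 1 member was lower, and DESeq2 called 0 lower. Without the SM libraries 6 were called higher, and without the untreated libraries 3.

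Trypsinogen genes rose, and their levels differed among all 3 numbers. PRSS2 stood at 69.3, 71.3 and 65.6 CPM under number 1, 187, 194 and 187 CPM under number 2 and 242, 241 and 239 CPM under number 3. PRSS1 stood at 1.48, 1.79 and 1.37, then 11.8, 13.1 and 11.6, then 16.9, 17.6 and 15.7 CPM. For neither gene did the libraries of any 2 numbers overlap. PRSS2 rose by 0.35 (SE 0.04, edgeR adjusted p = 2.42e-08) and PRSS1 by 0.46 (SE 0.07, edgeR adjusted p = 1.81e-05) from number 2 to number 3 on the log2 scale. The trypsinogen genes are close copies, so reads may be shared between them. MLXIPL, the carbohydrate response factor ChREBP, stood at 17.7, 16.9 and 17.2 CPM under number 1, 21.3, 22.4 and 22.4 under number 2 and 32.4, 32.0 and 35.3 under number 3. MLXIPL rose by 0.59 (SE 0.05, edgeR adjusted p = 2.59e-09).

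**Figure D3:**
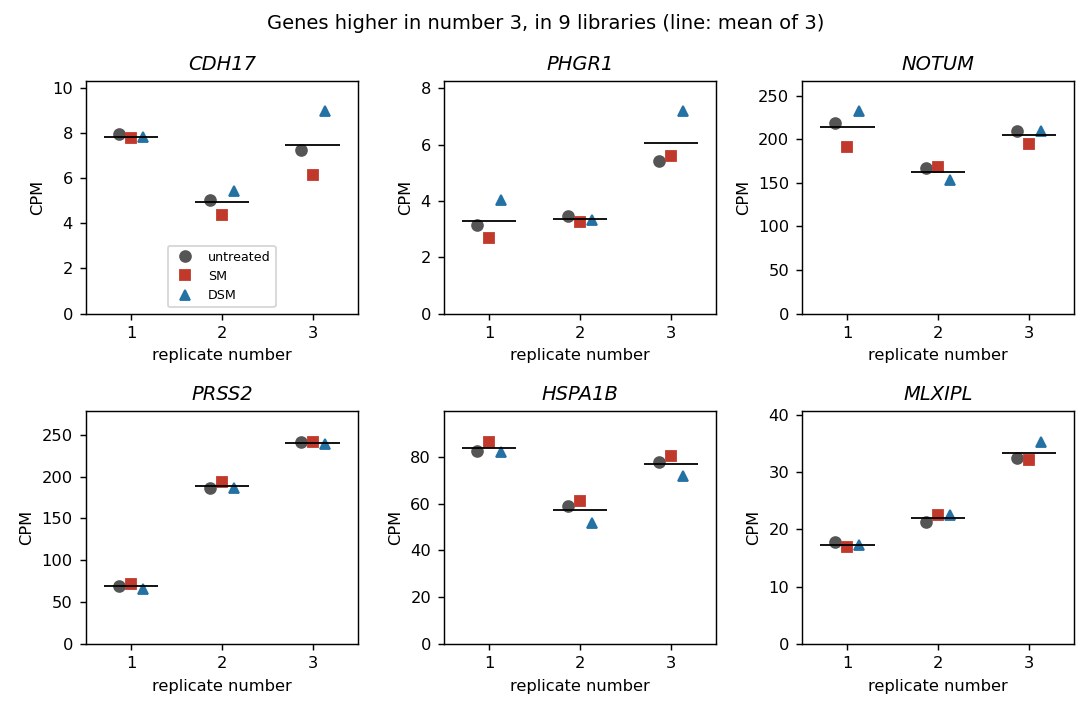
CPM (vertical axis, from 0) of CDH17, PHGR1, NOTUM, PRSS2, HSPA1B and MLXIPL in 9 libraries by replicate number (horizontal axis), with a symbol per treatment and a line at the mean of the 3 libraries of a number. The libraries numbered 3 lie above those numbered 2 in each panel; those numbered 1 are the lowest for PRSS2 and MLXIPL and the highest for HSPA1B.

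The other genes with the largest rises were SORCS2 (0.78), a sorting receptor; MGAM2 (0.60), a relative of the brush border enzyme maltase-glucoamylase; SSTR1 (0.56), a somatostatin receptor; DIO3OS (0.53); SLC9A3-AS1 (0.49); KCND1 (0.48), a potassium channel; MGAT3 (0.48), a glycosyltransferase; and GABRE (0.46), a GABA receptor subunit. DIO3OS and SLC9A3-AS1 are antisense genes and no source used here states the strand setting of the counting, so their reads cannot be told apart from those of overlapping genes. All 12 genes with the largest rises at 5 CPM or more lay between 1.38-fold and 1.79-fold. The genes called higher at 2-fold or more, named after their values were seen, were NODAL, LOC101929748, SPACA6 and SYT12, with log2 fold changes from 1.31 to 1.61 and all under 1 CPM. Those called lower at 2-fold or more were EGR1, EGR2, EGR3 and the antisense genes CERS6-AS1 (-1.44) and LMO7-AS1 (-1.65), both also under 1 CPM.

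Smaller parts of other lists changed, where 1.84% of all genes were called lower and 1.85% higher. Of 16 tested YAP and TEAD targets 4 were lower and 0 higher (list median -0.015): AREG and EREG, which this list shares, AXL (-0.31) and AMOTL2 (-0.19). AMOTL2 lost the call with library totals, DESeq2 and thinning, without treatment as a term, and on leaving out untreated or DSM libraries. KLF9, a glucocorticoid-induced factor of the FOXO and growth arrest list, fell by 0.82 on the log2 scale, and the chemokine CXCL8 had -0.43. Of 21 glycolysis genes 2 were lower, HK1 (-0.13) and PFKP (-0.15), and 0 without the untreated libraries. TFF3, a goblet cell peptide, rose by 0.28 and was the only one of 9 tested goblet and enteroendocrine genes called. The calls of TFF3 and CXCL8 were each lost with DESeq2, without treatment as a term and on leaving out untreated or DSM libraries.

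In edgeR's fit of the 6 libraries, 10 lists of housekeeping, proliferation and interferon genes held no called member. The S phase list (29 tested), the G2 and M phase list (30), cytosolic ribosomal proteins (52), both mitochondrial ribosome lists (31 and 32), the respiratory chain (46), the proteasome (27), cytosolic aminoacyl-tRNA synthetases (20) and ribosome biogenesis (29) each had 0 higher and 0 lower, with medians from -0.047 to 0.011. MKI67, a marker of cycling cells, had 0.01 and TOP2A 0.08 (adjusted p = 0.923 and 0.264). The interferon-stimulated genes (31) likewise had 0 called by edgeR. Over these 10 lists 9 of 327 members were higher and 22 lower at an unadjusted p under 0.05 (9.48%, against 15.5% of all genes), and DESeq2 called 0. Other settings called some: without the SM libraries 4 members of the respiratory chain and 3 interferon-stimulated genes were higher, and 3 of the ribosome biogenesis list and 3 of the G2 and M phase list lower. With that GC offset 4 of the ribosome biogenesis list were lower and 2 of the G2 and M phase list higher, TOP2A among them (0.11, adjusted p = 0.00815). The plot of gene lists places the immediate early genes at one end and the epithelial genes at the other.

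**Figure D4:**
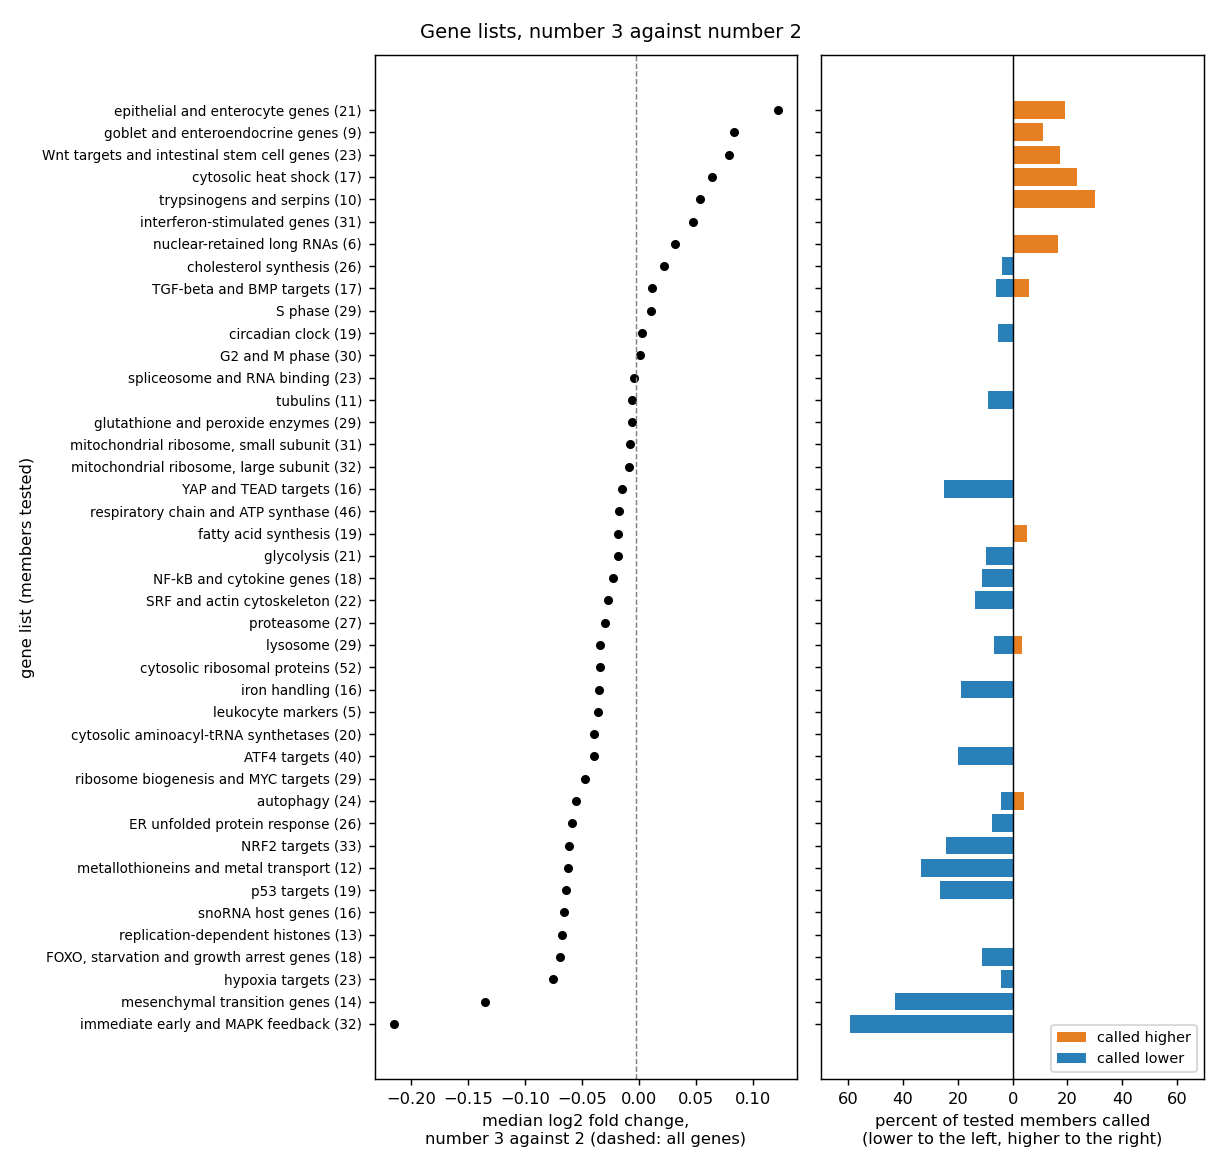
Gene lists with at least 5 tested members (vertical axis, members tested in brackets): median log2 fold change of number 3 against number 2 (left, dashed line at the median of all genes) and percent of members called (right, lower to the left and higher to the right). The immediate early list is lowest at -0.215 with 59.4% called lower, and the epithelial list highest at 0.122 with 19.0% called higher.

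GC content moved with the difference. Genes called higher had a median GC content of 59.3% in their transcripts, those called lower 51.5% and those not called 50.2%. With the genes in 5 equal groups by GC content, the median log2 fold change rose from -0.029 in the lowest group to 0.041 in the highest. Within treatments it rose from -0.037 to 0.050 in the untreated pair and from -0.079 to 0.097 in the DSM pair, but went from 0.035 to -0.021 in the SM pair. The immediate early list, called lower, had a median GC content of 56.2%, above the 50.4% of all genes. A GC offset per library, chosen after these values were seen, gave 981 called genes, which held 542 of the 567, and 24 of the 32 immediate early genes lower. The calls of ASCL2, MT2A, DDIT3 and NKD2 were lost in that fit, and MYC (-0.11) and LGR5 (0.15) were called. It called 7 of the Wnt list higher and 1 lower, 7 of the heat shock list higher, 4 of the epithelial list higher and 1 lower, 10 ATF4 targets and 9 NRF2 targets lower.

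**Figure D5:**
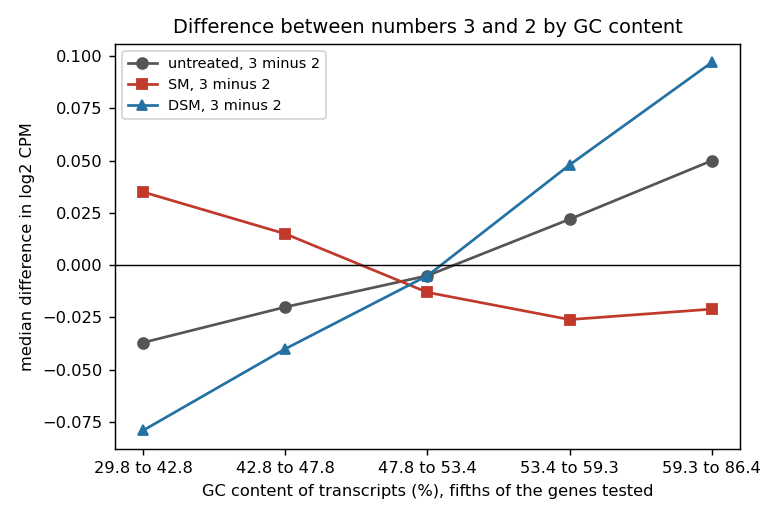
Median difference in log2 CPM between numbers 3 and 2 (vertical axis) for 5 equal groups of tested genes by transcript GC content (horizontal axis, percent), with a line per treatment. The untreated and DSM lines rise from the lowest to the highest GC content, and the SM line lies above 0 at the lowest and below 0 at the highest.

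Promoters were matched in RefSeq for 217 of the 284 genes called higher, 219 of the 283 called lower and 11747 of the 15384 tested, and 8 motifs were searched on both strands. Of the 5 motifs chosen with the design, the hypoxia element ACGTG was in 19.4% of those called higher, 26.9% of those called lower and 26.1% of all, the E box CACGTG, which contains that element, in 9.22%, 10.0% and 9.87%, the antioxidant element TGACNNNGC in 13.8%, 16.0% and 15.1%, the ATF4 element TGATGNAA in 1.84%, 3.20% and 1.84%, and the cell cycle element TTTGAA in 7.37%, 6.39% and 9.91%. The other 3 were added after the values were seen. The AP-1 site TGANTCA was in 5.99%, 10.0% and 4.95%, the EGR site GCGNGGGCG in 17.1%, 17.8% and 14.8%, and the CArG box in 1.38%, 2.74% and 1.06%. Of the 22 promoters of genes called lower with an AP-1 site, those of PLAUR, LAMA3, MT2A, CXCL8 and DDIT3 belong to genes named above or in their lists. Among 13 matched promoters of the 19 immediate early genes called lower, 5 held an EGR site, 0 an AP-1 site and 1, that of EGR1, a CArG box. These are counts of letters, with no test. The search covered 250 bases before to 50 bases after the start, so sites further away were not counted.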

How the data were processed

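Poly(A) RNA libraries of 9 SW620 cultures (NuGEN Universal Plus mRNA-seq kit, TRIzol extraction, per the labels' protocols) were processed by the authors on build hg38 with tools that include DESeq2 1.26.0, TopHat2 2.1.1, bcl2fastq 2.20.0.422, featureCounts 2.0.0, MultiQC 1.10.1, cutadapt 3.4 and FastQC 0.11.9, per the submitters' processing notes. The deposited raw counts are whole-number read counts per gene with no normalization by the authors; no source used here states the strand setting, the annotation or how multi-mapped reads were handled. The deposited normalized table was not used.

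The 6 libraries numbered 2 and 3 were fitted in R 4.3.3 with edgeR 4.0.16 (TMM, robust quasi-likelihood F test, two-sided, Benjamini-Hochberg over 15384 genes, threshold 0.05) with treatment and number as terms, which left 2 residual degrees of freedom and borrowed spread from all genes (prior degrees of freedom 31.5). The full interaction of number and treatment would leave no residual degrees of freedom and was not fitted. SE is the log2 fold change divided by the square root of F. CPM use TMM factors over 9 libraries and log2 CPM a prior count of 2. Within a treatment, libraries numbered 2 and 3 had chi-square values of 6.89 to 8.33 per degree of freedom. Pairs with a library numbered 1 had 23.9 to 36.5. Libraries of a treatment thus differed beyond counting error. GC content comes from GENCODE v29 transcripts and covers 95.1% of genes; gene coordinates and promoters come from RefSeq (GRCh38.p14).

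In a simulation of 15384 genes, 200 were given a known change. The test recovered 61.2% of those set to a 1.25-fold change, 77.6% at 1.5-fold and 89.4% at 2-fold. In the simulation 3 calls were false. Recovery and false calls in the sequenced libraries were not tested.

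Text names the 12 largest called changes per direction (at least 5 CPM in either number, same sign in 3 treatments, libraries not overlapping, no pseudogene, readthrough or placeholder identifier), up to 4 called members per list (2 most abundant if none) and 14 fixed genes. Other members of the lists and of families are named to account for a list; families, and genes called 2-fold or more, were chosen after their values were seen. The comparison and the 46 lists were chosen with earlier results of these data known. Other settings tried were scaling by DESeq2 size factors or by library totals, other filters, DESeq2 1.42.0, limma 3.58.1 voom, 9 libraries, no treatment term, no robust estimation, thinning, and leaving out each library or treatment; 3 GC settings were added after the data were seen. Some genes are not reported here.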

Additional observations from a re-analysis of the deposited data

Results flagged for a closer look

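Of the named genes averaging at least 5 CPM under either number and the lists, 4 genes moved by at least 0.1 on the log2 scale in opposite directions in different treatments. Each value is 1 library numbered 3 minus 1 numbered 2, and the difference between treatments was not tested. ASNS, asparagine synthetase, differed by -0.24 in the untreated pair, 0.23 in the SM pair and -0.02 in the DSM pair. LYZ, lysozyme, differed by -0.22, -0.06 and 0.16. LUM, lumican, differed by -0.14, 0.05 and 0.31. CD68, a lysosomal membrane protein, differed by -0.13, 0.18 and 0.33.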

How the results depend on the processing

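No paired analysis was possible with the replicate number as the block, because it is itself the contrast; the treatment term sets each library numbered 3 against the one numbered 2 of its treatment. In place of 567 genes (284 higher, 283 lower), DESeq2 called 273 (126 and 147) with 3878 genes given no adjusted p, and a fit without the treatment term 120 (55 and 65). Leaving out 1 library gave 185 to 1497 genes, 89 to 788 higher and 95 to 722 lower; since treatment is a term, the remaining library of that treatment then bears on nothing else. By library the totals were 185 and 187 without untreated 2 or 3, 328 and 326 without DSM 2 or 3, and 1476 and 1497 without SM 2 or 3. Leaving out both libraries of a treatment gave 186 (88 and 98) for untreated, 1500 (789 and 711) for SM and 325 (144 and 181) for DSM. The GC offset gave 981 (472 and 509), 557 genes were called on the same genes without it, and with both SM libraries left out it gave 1000 (456 and 544). The other 8 settings with all libraries gave 513 to 691, with an uneven split under library totals (371 and 256, 59.2% higher). Of 82 named genes that were called, 29 kept the call in every alternative that gave them a value, 13 lost it only without the treatment term, 2 others in 1 alternative and 38 in 2 or more; 0 reversed. Of these calls 34 were lost without the untreated libraries, 23 without the DSM libraries and 5 without the SM libraries. EGR1, EGR3, FOS, DUSP5, AREG, EREG, PLAUR, CDKN1A, PHGR1, NOTUM, PRSS1, PRSS2, HSPA1B and MLXIPL kept theirs throughout. Leaving out 1 or both libraries of a treatment counts here as separate alternatives, though these fits nearly repeat each other. Members of the immediate early list called lower numbered 11 (no treatment term) to 24 (GC offset). The causes were not tested. Genes under about 1 CPM were measured on few reads.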
